A study of Mus musculus with 18 samples.

Results

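The genes described here are the 33 of glycolysis and the pentose phosphate pathway that were listed for this series, 27 of glycolysis and its control and 6 of the pentose phosphate pathway. A gene was measured where a probe set of the array is annotated with its symbol alone, and where several are, the one with the highest mean over the 18 arrays stands for the gene. By that rule 29 of the 33 were measured, out of 19752 genes on the array: 24 glycolytic or control genes and 5 pentose phosphate genes. Gpi1, Eno1 and G6pdx have no probe set of their own under these symbols, and Gapdh is annotated only on 19 probe sets that name several genes, so these 4 genes have no value here.

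Glycolysis splits glucose into pyruvate in the cytosol and yields ATP without oxygen. The pentose phosphate pathway branches from its first product and makes NADPH in an oxidative arm and ribose phosphate, the sugar of nucleotides, in a non-oxidative arm that can also return sugars to glycolysis. Activated and dividing T cells are known for raising both, and regulatory T cells (Tregs), the Foxp3-expressing CD4+ cells that restrain immune responses, are known for relying on glycolysis to a degree that depends on their state.

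The arrays are 18 Affymetrix Mouse Gene 1.0 ST chips, 3 for each of 6 groups of Tregs, and every mouse was of the diabetes-prone NOD strain. The spleen groups come from females aged 60 days that carry the Foxp3-eGFP-Cre-ERT2 allele and a Rosa26-YFP lineage reporter, so that 4 intraperitoneal tamoxifen injections mark for good, with YFP, the cells that express Foxp3 at that time. Injections fell between days 0 and 10 after birth in the perinate groups and between days 35 and 45 in the adult groups. From each kind of mouse GFP+YFP+ cells (perinate-tagged, adult-tagged) and GFP+YFP- cells (untagged, the bulk Tregs) were sorted. All spleen mice therefore carried the same alleles and received tamoxifen, and the YFP mark is borne only by cells in which Cre acted. The thymus groups are CD4+GFP+ cells of male Foxp3-GFP reporter mice aged 4 days (perinate) or 5 weeks (adult), for which no tamoxifen is labelled. Spleen and thymus samples differ in tissue, sex, reporter, sorter and age, which cannot be told apart. Whether replicates are single mice or pools is not labelled, so p-values measure the spread between these samples only, which may be technical.

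Values are the authors' RMA intensities, on a linear scale as deposited, taken here as log2 with no pseudocount. Transcripts that a mouse of the labelled sex lacks read between 3.95 and 6.30 log2 on these arrays, which is the level of no transcript. A library labelled female, perinate-tagged replicate 2, goes against its label: the Y-linked Eif2s3y read 9.79 there against at most 4.90 on the 11 other spleen arrays, and Xist read 8.38 against at least 11.86. Calls that are lost without it are named with their values beside the results. Adult thymus replicate 2 has the narrowest spread of values, an interquartile range of 2.08 log2 against 2.49 to 3.12 on the 17 others. The Treg markers Foxp3, Il2ra, Ctla4, Ikzf2, Cd4 and Cd3e sum to intensities from 24815 to 29962 over all groups, while the 7 myeloid markers average 6.89 log2 or less in every group. Of the 4 measured B cell markers, Cd79a, Ms4a1 and Pax5 average 6.72 or less, and Cd79b averages from 8.74 to 9.55. Bulk samples cannot tell more RNA per cell from a larger share of cells that hold it.

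For 4 members the 250 bases before the outermost RefSeq start (GRCm38.p6) are shown, because these genes carry the results below: Pgk1 and Taldo1 have the largest differences of their arms in tagged spleen Tregs, Tpi1 comes next to Pgk1, and Slc16a1 passed the test in spleen and thymus alike. Capitals mark ACGTG or GCGTG on either strand, the letters at the core of the hypoxia response element that HIF-1 binds. The windows are Pgk1 at chrX:106186850-106187099 (plus strand), Tpi1 at chr6:124814159-124814408 (minus strand), Taldo1 at chr7:141391910-141392159 (plus strand) and Slc16a1 at chr3:104638414-104638663 (plus strand), each printed 5′ to 3′ along its gene.
Pgk1: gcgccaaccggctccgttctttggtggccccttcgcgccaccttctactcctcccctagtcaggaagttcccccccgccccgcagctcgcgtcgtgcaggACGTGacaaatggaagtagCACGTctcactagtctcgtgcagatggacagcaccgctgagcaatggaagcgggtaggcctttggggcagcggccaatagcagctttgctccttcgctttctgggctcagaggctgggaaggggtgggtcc
Tpi1: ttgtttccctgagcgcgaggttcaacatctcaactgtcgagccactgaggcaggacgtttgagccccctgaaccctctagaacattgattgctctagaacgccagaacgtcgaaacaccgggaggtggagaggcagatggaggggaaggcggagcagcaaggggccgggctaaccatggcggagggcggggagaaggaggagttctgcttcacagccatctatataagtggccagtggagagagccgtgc
Taldo1: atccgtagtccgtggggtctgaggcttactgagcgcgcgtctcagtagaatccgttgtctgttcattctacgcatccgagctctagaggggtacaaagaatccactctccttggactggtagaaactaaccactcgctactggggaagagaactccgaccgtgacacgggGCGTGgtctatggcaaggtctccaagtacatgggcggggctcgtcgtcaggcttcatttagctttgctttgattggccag
Slc16a1: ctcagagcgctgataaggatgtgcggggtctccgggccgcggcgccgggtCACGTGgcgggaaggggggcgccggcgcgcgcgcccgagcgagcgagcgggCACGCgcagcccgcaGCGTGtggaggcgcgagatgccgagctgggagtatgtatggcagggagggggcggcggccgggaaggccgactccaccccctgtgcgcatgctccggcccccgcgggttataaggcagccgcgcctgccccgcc
The Pgk1 window holds the letters at 150 and 131 bases before the start, and that of Taldo1 at 80. In the Slc16a1 window they occur at 200, 199, 149 and 134 bases before the start, the first pair forming the E-box CACGTG, which reads as ACGTG on both strands. The Tpi1 window holds neither, so it has no capitals. Over 27025 genes with such windows, 41.5% have either motif in at least 1 window, against 30 of 32 members in that table (93.8%); the exceptions are Tpi1 and Gpi1. CACGTG is in 6.86% of all genes and in 6 of 32 members. The motifs are rich in G and C, and so are the windows: the median GC content is 60.4% in 46 member windows and 52.4% in all 32851. A gene counts when any of its windows matches. Members also have more windows per gene, 46 for 32 members where all 27025 genes have 32851. A match is a run of letters and not a measured binding site.

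The first comparison asks whether Tregs marked around birth and Tregs marked in adulthood, both taken from adult spleen, differ in these genes. In perinate-tagged cells 11 of 27 tested members were higher than in adult-tagged cells and 0 were lower, at an adjusted p below 0.05 in limma; Hk2 and Pfkfb4 were too dim to test. That is 40.7% of the members, where 19.5% of all 10350 tested genes passed, 16% as higher and 3.5% as lower. The median difference of the members was 0.30 log2, against 0.12 over all tested genes. Of the glycolytic and control genes 8 of 22 rose, with a median of 0.30, and of the pentose phosphate genes 3 of 5, with a median of 0.62. The 3 arrays of each group did not overlap for 19 of 27 members, a separation that 45.8% of all tested genes show.

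**Figure D1:**
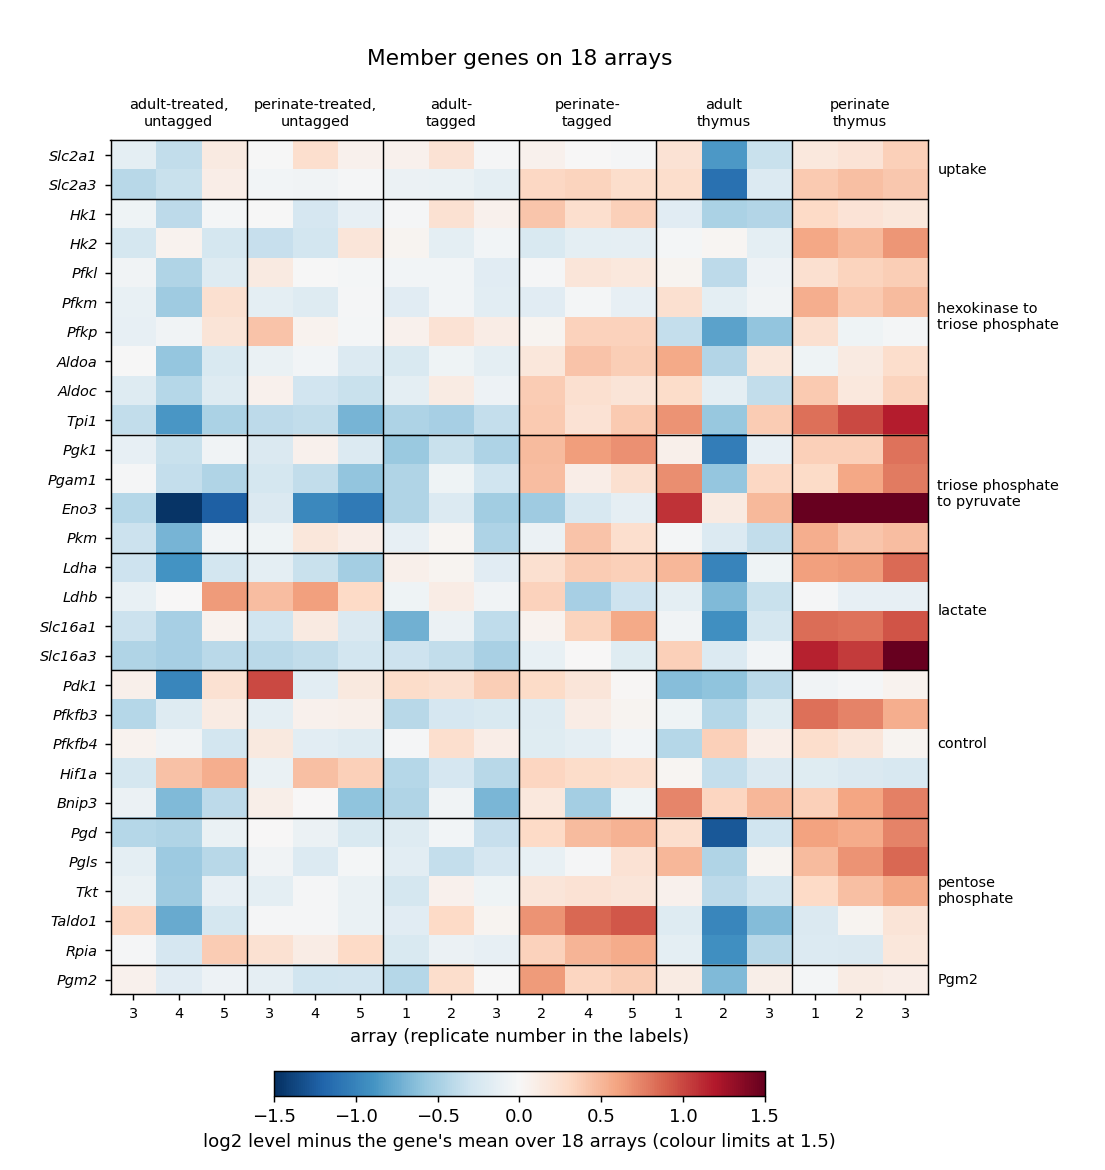
Level of each measured member on each of the 18 arrays, as log2 intensity minus the gene's mean over all arrays (colour), with columns grouped by sample group and rows by role. The perinate-tagged columns are above the mean in most rows, the perinate thymus columns more strongly so for Eno3, Slc16a1 and Slc16a3, and the second adult thymus column is low in most rows.

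Pgk1, phosphoglycerate kinase, catalyses the first ATP-yielding step of glycolysis and showed the largest difference among the members. Its log2 levels were 10.57, 10.71 and 10.77 on the perinate-tagged arrays and 9.53, 9.75 and 9.63 on the adult-tagged ones. Each perinate-tagged array was above every other spleen array, since the untagged cells read 9.75 to 10.15. The difference between the tagged groups was 1.05 ± 0.128 (SE) log2, a 2.07-fold higher level, with an adjusted p of 5.98e-05.

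Pgam1, phosphoglycerate mutase of the step after Pgk1, was 0.54 ± 0.154 higher (adjusted p = 0.0249). Its levels were 10.45, 10.09 and 10.22 in perinate-tagged and 9.54, 9.92 and 9.69 in adult-tagged cells, so that the groups were apart by a small margin. Pgk1 and Pgam1 each have a second probe set, and near-identical copies of both genes are known in the mouse genome, which an array probe may not tell apart. The second probe sets gave 1.01 ± 0.133 for Pgk1 and 0.60 ± 0.146 for Pgam1. The last enzymes of the pathway did not pass: Pkm, pyruvate kinase, differed by 0.38 (adjusted p = 0.145) and Eno3, the muscle-type enolase, by 0.09 (adjusted p = 0.821).

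In the upper part of the pathway, Tpi1, which interconverts the triose phosphates, read 9.77, 9.60 and 9.77 in perinate-tagged cells against 8.92, 8.88 and 9.02 in adult-tagged cells. The adult-tagged levels overlapped the untagged ones, at 8.51 to 9.02, and the perinate-tagged ones were above all of these. The difference was 0.77 ± 0.144 (1.71-fold, adjusted p = 0.00189). Aldoa, the aldolase that cleaves fructose bisphosphate, was 0.47 ± 0.143 higher (adjusted p = 0.0338), with levels of 11.21 to 11.48 against 10.82 to 10.98. The gates that commit glucose to glycolysis were not called: hexokinase Hk1 differed by 0.25 (adjusted p = 0.186), and the phosphofructokinases Pfkl, Pfkp and Pfkm differed by 0.19, 0.12 and 0.02. Aldoc, a brain-type aldolase near the limit of the filter, differed by 0.30 (adjusted p = 0.126).

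Glucose enters through Slc2a1 (GLUT1) and Slc2a3 (GLUT3), of which Slc2a3 passed the test. Slc2a3 read 10.04, 10.06 and 9.99 in perinate-tagged and 9.64, 9.63 and 9.58 in adult-tagged cells, a difference of 0.41 ± 0.131 (adjusted p = 0.0394). Slc2a1 read 10.01 to 10.09 and 10.01 to 10.24, a difference of -0.07 with a 95% interval from -0.36 to 0.23.

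At the lactate end, Slc16a1 (MCT1), a carrier of lactate and pyruvate across the cell membrane, read 8.18, 8.46 and 8.70 in perinate-tagged cells against 7.41, 8.04 and 7.75 in adult-tagged cells. The difference was 0.71 ± 0.193 (1.64-fold, adjusted p = 0.0193), and the groups were apart, though their arrays spread widely. The other carrier, Slc16a3 (MCT4), differed by 0.29 (adjusted p = 0.0798). Lactate dehydrogenase A, whose product is lactate, differed by 0.34 (adjusted p = 0.145), and Ldhb, the isoform that favours the return to pyruvate, by -0.15 (adjusted p = 0.637). A second probe set of Ldhb gave -0.12 (adjusted p = 0.775 in limma).

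Among the control genes Hif1a, the oxygen-regulated subunit of HIF-1, was 0.65 ± 0.191 higher in perinate-tagged cells (adjusted p = 0.028). It read 11.89, 11.85 and 11.82 there and 11.14, 11.32 and 11.15 in adult-tagged cells. The untagged arrays covered both: replicates 4 and 5 of each untagged group read 11.93 to 12.11, and replicate 3 read 11.30 and 11.46. The adult-tagged arrays were low together with these, and perinate-tagged cells were at 0.05 from their untagged counterpart (adjusted p = 0.91). Not called were Pfkfb3, which makes the activator of phosphofructokinase, at 0.29 (adjusted p = 0.175), Bnip3, a HIF-1 target of mitophagy, at 0.26, and Pdk1, the kinase that closes pyruvate dehydrogenase, at -0.13. Bnip3 has a second probe set that was too dim to test in spleen.

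Of the pentose phosphate genes Taldo1, transaldolase of the non-oxidative arm, read 9.18, 9.38 and 9.44 in perinate-tagged and 8.34, 8.81 and 8.55 in adult-tagged cells, a difference of 0.77 ± 0.208 (1.70-fold, adjusted p = 0.0194). All 3 perinate-tagged arrays were above every other array of the series. Rpia, the isomerase that makes ribose phosphate, was 0.62 ± 0.147 higher (adjusted p = 0.00974), with 8.78 to 8.99 against 8.20 to 8.34. Pgd, which yields NADPH in the oxidative arm, was 0.63 ± 0.135 higher (adjusted p = 0.005), with 9.39 to 9.61 against 8.74 to 9.05. The lactonase Pgls and transketolase Tkt differed by 0.29 each and did not pass (adjusted p = 0.139 and 0.143). Pgm2, named a phosphoglucomutase, was counted with the glycolytic and control genes and not with these. It was 0.50 ± 0.160 higher (adjusted p = 0.0389), at 10.07, 9.77 and 9.82 against 9.01, 9.70 and 9.43, groups that were barely apart.

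Some facts of the libraries move with this comparison, and their part in the result was not tested. Replicate numbers are largely tied to the groups: 2, 4 and 5 in perinate-tagged and 1, 2 and 3 in adult-tagged samples. What a number stands for is not labelled, but in untagged cells replicate 3 deviated against replicates 4 and 5 (correlations -0.63 to -0.27). With the replicate number as a block over the 12 spleen arrays 3 members were called. Cell division genes were higher in perinate-tagged cells, 9 of 9 measured of the 10 listed, with a median of 2.27 and a summed intensity of 12816 to 12901 against 4168 to 5352. The interquartile range of the arrays was 2.94 to 3.12 in perinate-tagged and 2.49 to 2.88 in adult-tagged samples. With that range as a covariate Pgk1 alone was called, at 0.83 (adjusted p = 0.00532), and all tested genes gave 376 calls in place of 2020. Of genes that answer early to stimulation or handling 3 of 9 were higher, Fos (1.44), Ier3 (1.09) and Fosb (0.96), and the medians of these 9 were 8.46 to 8.76 against 7.57 to 7.94, without overlap. Of the B cell markers Cd79b was the one tested and was higher (0.66), and the 4 summed to 833 to 986 against 602 to 692; Cd79a and Ms4a1 averaged at most 5.66 and 5.48 log2 in the spleen groups. Of 4 tested markers of thymic epithelium and stroma Epcam was higher (1.07), while Krt8, Col1a1 and Col3a1 gave -0.35, -0.28 and -0.36 without passing. Of the 6 Treg markers 1 was called lower in perinate-tagged cells, where 3.5% of all genes were, and the median of the 6 was -0.01.

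The number of members called depends on single arrays. It was 7 without perinate-tagged replicate 2, the array against its sex label, where Slc2a3 (0.41, adjusted p = 0.0741), Pgam1 (0.44, 0.0802), Pgm2 (0.41, 0.114) and Hif1a (0.63, 0.0594) missed the threshold. Leaving out replicate 1 or 3 of the adult-tagged group gave 3 and 4 calls, and leaving out replicate 4 or 5 of the perinate-tagged group gave 5 and 3. Pgk1 was called under all 19 alternatives run, with 0.83 to 1.14 log2, and Tpi1 under 18. The other 9 lost the call under 3 alternatives (Pgd) to 12 (Slc2a3). Of all genes, 1658 were called higher and 362 lower; quantile normalization gave 1115 and 720, centring each array on its median 2004 and 176, and centring on the tested genes 922 and 1378, with all 11 differences still above 0.

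**Figure D2:**
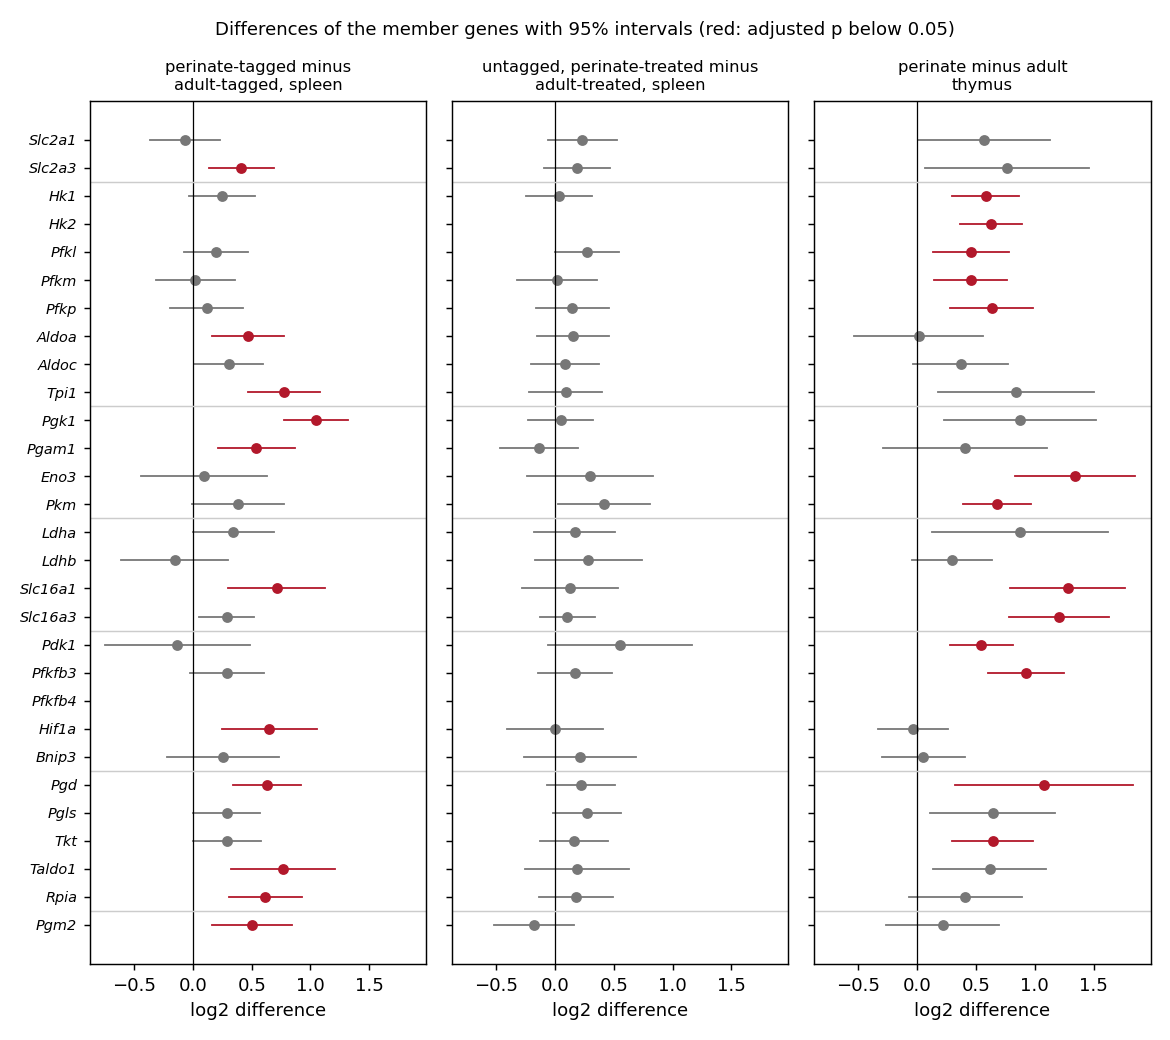
Difference of each member (log2, point) with its 95% interval (bar) in 3 comparisons: perinate-tagged minus adult-tagged, untagged cells of perinate-treated minus those of adult-treated mice, and perinate minus adult thymus; red marks an adjusted p below 0.05. The tagged panel has 11 red members, the untagged panel 0 and the thymus panel 13, with Hk2 and Pdk1 tested there only through the perinate thymus; Hk2 and Pfkfb4 lack points where they were too dim to test.

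Untagged cells of mice given the same treatments serve as the control for the age of the mouse at tamoxifen. They bear no mark, so they are no control for the time since marking. That time is longer in perinate-tagged than in adult-tagged cells, and its part in the result was not tested. Between perinate-treated and adult-treated mice 0 of 27 members passed in untagged cells, as did 0% of all 10350 genes in limma; at an unadjusted p below 0.05 there were 380 genes, of which 1 is a member, Pkm (0.42, adjusted p = 0.995). Pgk1 differed by 0.05, Tpi1 by 0.09 and Taldo1 by 0.19. The arrays of the groups were apart for 2 members, Pfkl and Slc16a3, where 4.81% of all genes were. With the replicate number as a block over the 6 untagged arrays, 49 of 9891 genes were called, 37 higher and 12 lower, and 0 of 26 members.

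The difference of differences asks whether the perinate-adult contrast is larger in tagged than in untagged cells. It passed for Pgk1 alone, at 1.00 ± 0.182 (adjusted p = 0.00415), 1 of 27 members (3.7%) where 4.89% of all genes passed, 4.29% as higher. Without perinate-tagged replicate 2 it was 1.06 (adjusted p = 0.00541). With the replicate number as a block it was 0.89 (adjusted p = 0.0509), and in a fit of all 18 arrays the adjusted p was 0.0608. Tpi1 at 0.69 (adjusted p = 0.0709), Pgam1 at 0.68 (0.0972) and Pgm2 at 0.69 (0.105) did not pass. For the other members called in tagged cells the contrast is therefore not shown to differ from that in untagged cells. Of the cell division genes 7 of 9 passed as higher in this difference of differences, with a median of 2.28. Their part in the Pgk1 result was not tested.

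Tagged and untagged cells of the same treatment were compared as well; the first of these comparisons shares the perinate-tagged arrays with those above, so its values are given side by side with them and not as separate support. In perinate-treated mice 8 of 27 members were higher in tagged than in untagged cells and 0 were lower (29.6% of members, against 7.34% of all genes, 5.49% as higher and 1.86% as lower), with a median of 0.28 against 0.02 over all genes. Tpi1 was higher by 0.82 ± 0.144 (adjusted p = 0.00335), Pgk1 by 0.72 ± 0.128 (0.00373) and Taldo1 by 0.87 ± 0.208 (0.0207). Pgm2, Pgam1 and Pgd were higher by 0.69, 0.68 and 0.54. Ldha (0.66 ± 0.162, adjusted p = 0.0243) and Hk1 (0.47 ± 0.131, adjusted p = 0.0409) passed here and not between the tagged groups.

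Ldha read 12.21, 12.35 and 12.32 in perinate-tagged and 11.83, 11.63 and 11.46 in untagged cells of the same treatment. The adult-tagged arrays, at 12.04, 12.01 and 11.80, were also above their untagged counterpart at 11.66, 11.07 and 11.69, a difference of 0.48 that did not pass (adjusted p = 0.191). Ldhb went the other way, at -0.61 in perinate-treated and -0.18 in adult-treated mice, without passing (adjusted p = 0.1 and 0.695).

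Cell division genes were higher in this comparison too, 9 of 9, with untagged sums of 5980 to 7418, and snoRNA medians, read as a sign of RNA handling, were 8.14 to 8.53 in tagged and 8.70 to 9.54 in untagged samples without overlap. Cd79b was higher as well (0.81), with B cell sums of 833 to 986 against 565 to 703. Their part in the result was not tested. Without perinate-tagged replicate 2 there were 6 calls: Hk1 (0.44, adjusted p = 0.108), Pgam1 (0.58, 0.0577) and Pgm2 (0.59, 0.0638) were lost, and Ldhb was called lower (-0.86, 0.0176). Leaving out replicate 4 or 5 of the tagged cells gave 4 and 2, and of the untagged cells 3 and 2. Pgk1 and Tpi1 were called under all 19 alternatives.

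In adult-treated mice 0 of 27 members passed between tagged and untagged cells, where 0.271% of all genes did, 28 of them as lower; 4 members had an unadjusted p below 0.05. The count over all genes turns on single arrays: it was 774, with 210 higher, without untagged replicate 3, and 0 without tagged replicate 1 or 3 or untagged replicate 4 or 5. Hif1a was 0.60 lower in tagged cells (-0.60 ± 0.191, adjusted p = 0.177) and Eno3 read 0.65 higher (adjusted p = 0.236). Pgk1 differed by -0.29 (adjusted p = 0.289), so that its adult-tagged level was the lowest of the spleen groups without passing the test. Of the cell division genes 4 of 9 were called lower in adult-tagged cells, with a median of -1.11 and sums of 4168 to 5352 against 6491 to 7202. Their part in these levels was not tested.

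**Figure D3:**
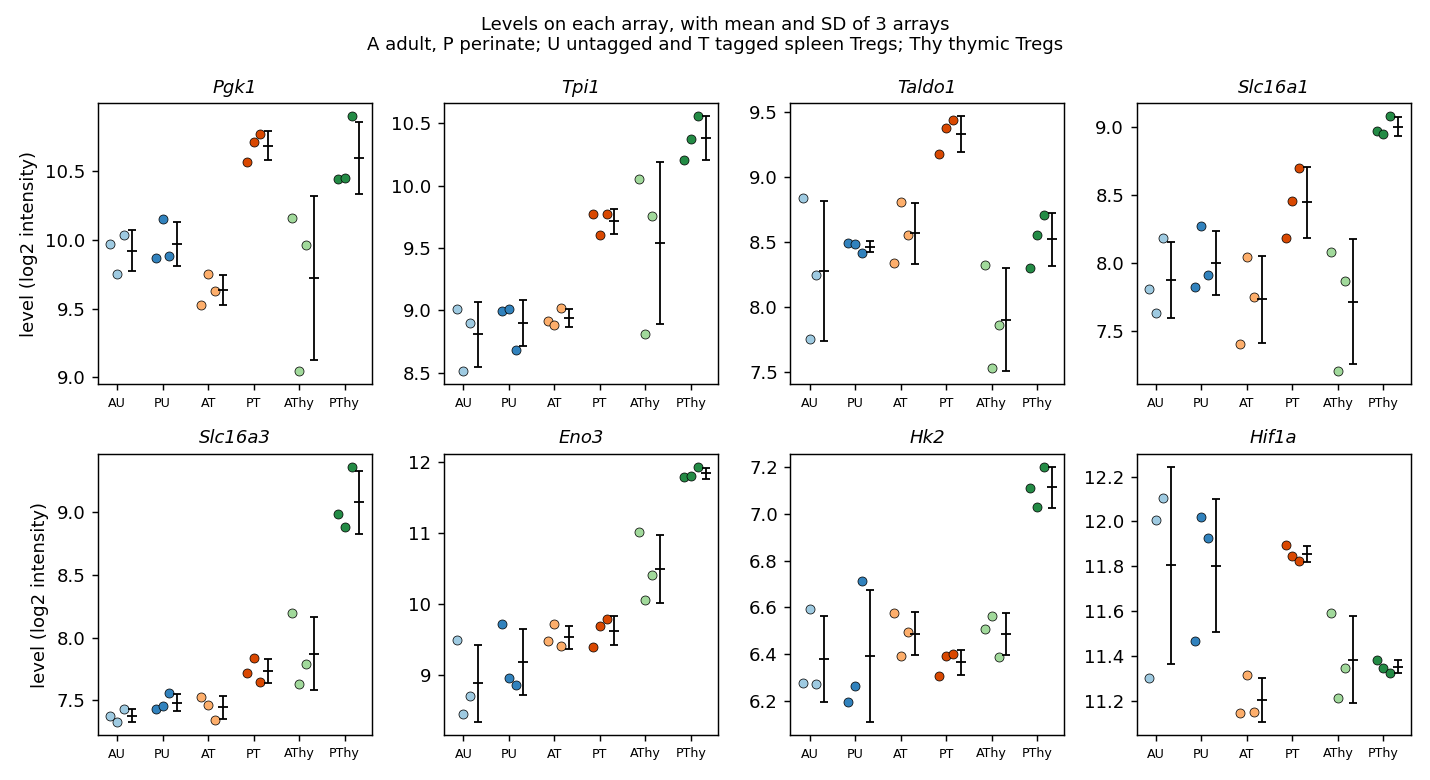
Log2 intensity of 8 members on each array (points), with the mean and SD of the 3 arrays of each group beside them; each panel has its own axis and axes do not start at 0. Pgk1, Tpi1 and Taldo1 are highest among spleen groups in perinate-tagged cells, while Slc16a3, Eno3 and Hk2 stand out in perinate thymus.

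The thymus comparison asks how these genes differ between Tregs of newborn and adult thymus. Of 28 tested members 13 were called higher in perinate thymus and 0 lower, where 24.3% of all 10650 genes passed, 18.5% as higher and 5.84% as lower. For 3 of the 28, Hk2, Pdk1 and Aldoc, the mean reached the filter of 7.05 log2 in perinate thymus alone, so that they were tested because they are high there; Hk2 and Pdk1 are among the 13. Of the other 25 members 11 were higher and 0 lower (44%), against 18.3% higher and 4.28% lower of the 9328 genes that are left when such genes are set aside. The median of the 25 was 0.63 log2, against 0.19 over those genes. With the interquartile range of the arrays as a covariate the median of the 28 fell to 0.13, with 18 of them above 0, and 9 were called, 8 higher and 1 lower, Aldoa (-0.62, adjusted p = 0.0128). The arrays were apart for 18 of 28 members, where 53.6% of all genes were.

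The largest differences lay at the end of the pathway. Eno3, an enolase, read 11.79, 11.80 and 11.93 in perinate and 11.01, 10.06 and 10.41 in adult thymus, a difference of 1.35 ± 0.222 (2.54-fold, adjusted p = 0.00595). All spleen arrays, at 8.46 to 9.80, were below both thymus groups. Slc16a1 read 8.97, 8.95 and 9.08 against 8.08, 7.21 and 7.87 (1.28 ± 0.213, 2.43-fold, adjusted p = 0.00611), and Slc16a3 read 8.99, 8.88 and 9.36 against 8.19, 7.63 and 7.79 (1.20 ± 0.186, 2.30-fold, adjusted p = 0.00453). Both lactate carriers were therefore higher in newborn than in adult thymic Tregs on every array. Pkm was higher by 0.68 ± 0.126 (adjusted p = 0.0093), and Ldha, at 0.88 ± 0.326, missed the threshold (adjusted p = 0.0787).

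The gates of glycolysis passed in thymus. Hk1 was higher by 0.58 ± 0.125 (adjusted p = 0.0154), and the phosphofructokinases Pfkp, Pfkl and Pfkm by 0.63, 0.46 and 0.45 (adjusted p = 0.023, 0.0476 and 0.0438). They had not passed between the tagged groups of the spleen, but the spleen and thymus contrasts of these 4 genes were not shown to differ (adjusted p from 0.162 for Pfkp to 0.436 for Pfkl). Pfkfb3, which makes their activator, read 8.81, 8.73 and 8.53 against 7.93, 7.56 and 7.80, a difference of 0.93 ± 0.139 (adjusted p = 0.00409). Hk2, the inducible hexokinase, read 7.11, 7.03 and 7.20 against 6.51, 6.56 and 6.39. The 15 arrays outside the perinate thymus, at 6.20 to 6.71, lie near the level of no transcript, so no size is read from its difference. Pdk1 read 7.50 to 7.60 in perinate and 6.91 to 7.14 in adult thymus, whose mean is just under the filter.

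Of the pentose phosphate genes Pgd (1.08 ± 0.330, adjusted p = 0.048) and Tkt (0.64 ± 0.150, adjusted p = 0.0207) were higher. Pgd read 9.69, 9.64 and 9.84 in perinate thymus and 9.34, 7.82 and 8.79 in adult thymus, a spread set by replicate 2. Pgls (0.64, adjusted p = 0.0733), Taldo1 (0.62, 0.062) and Rpia (0.41, 0.162) did not pass. Nor did Pgk1 (0.87 ± 0.282, adjusted p = 0.0549) and Tpi1 (0.84 ± 0.289, adjusted p = 0.0658), whose adult thymus arrays spread from 9.05 to 10.16 and from 8.82 to 10.05. Aldoa, Hif1a and Bnip3 differed by 0.01, -0.03 and 0.05; the second probe set of Bnip3 gave -0.28 (adjusted p = 0.145).

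Here too cell division genes moved, 8 of 9 higher, with sums of 11780 to 13062 against 3924 to 6533. Of the early response genes 3 of 8 were higher, Fos (1.67), Fosb (1.23) and Ier2 (0.92), and 1 lower, Hspa1a (-0.57), and the medians of the list were 8.73 to 8.87 against 7.44 to 7.83, without overlap. Of the snoRNAs 9 of 42 were higher and 3 lower, with medians of 8.70 to 8.80 against 8.14 to 8.85, which overlap. The interquartile range was 3.00 to 3.06 in perinate and 2.08 to 2.82 in adult thymus. Cd8a was lower in perinate thymus (-0.61), and the CD8 T and NK markers summed to 1682 to 1765 against 2192 to 2433. Their part in the result was not tested. Without adult thymus replicate 2 there were 19 calls, without replicate 1 there were 22 and without replicate 3 there were 7; leaving out perinate thymus replicates 1, 2 and 3 gave 4, 6 and 4. Eno3, Slc16a1, Slc16a3 and Pfkfb3 were called under every alternative run, and Pgd under 8 of 18. Of all genes, 1967 were called higher and 622 lower. Quantile normalization gave 1225 and 969, centring on the array median 2213 and 300, and centring on the tested genes 1142 and 1671. The 13 differences stayed above 0 wherever they were tested. With centring on the tested genes Hk2 fell under the filter and was not tested.

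**Figure D4:**
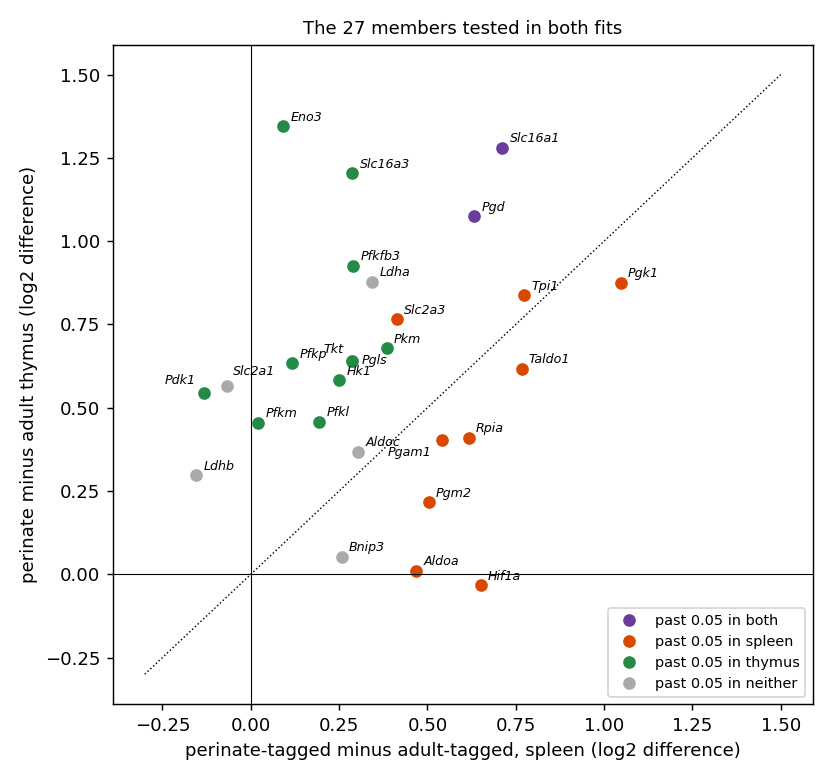
Perinate-tagged minus adult-tagged difference in spleen (x axis, log2) against perinate minus adult difference in thymus (y axis, log2) for the 27 members tested in both, coloured by where the adjusted p was below 0.05; the dotted line marks equal differences, and the point of Pgls lies under that of Tkt. Slc16a1 and Pgd are called in both, Hif1a and Aldoa lie on the spleen side near 0 in thymus, and Eno3 lies on the thymus side near 0 in spleen.

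The spleen and thymus contrasts share no array. Of the 11 members called in tagged spleen cells and the 13 called in thymus, 2 are common, Slc16a1 and Pgd. Hk2, 1 of the 13, was not tested in spleen. Among the 27 members tested in both, the 2 are 18.2% of the 11 higher in spleen and 16.7% of the 12 higher in thymus. Over the 10111 genes tested in both, 600 were higher in both, which is 37.6% of those higher in spleen and 31.9% of those higher in thymus. The difference between the contrasts was itself tested over all 18 arrays. It passed for 3 of 28 members, where 6.46% of all genes passed (3.89% as higher and 2.56% as lower). One of the 3 is Hk2, which reached the filter in perinate thymus alone and whose spleen levels are near that of no transcript, so nothing is read from it. In the others the spleen contrast was smaller: Slc16a3 (-0.92 ± 0.202, adjusted p = 0.00922) and Eno3 (-1.25 ± 0.366, adjusted p = 0.0477). Slc16a3 passed under every alternative run and Eno3 under 10 of 24. Without perinate-tagged replicate 2 Eno3 gave -1.14 (adjusted p = 0.107).

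For the members called in spleen alone the difference was not called: Hif1a gave 0.68 ± 0.253 (adjusted p = 0.115), Aldoa 0.46 (0.345), Pgk1 0.17 (0.799), Taldo1 0.15 (0.842) and Tpi1 -0.06 (0.938). The 95% interval for Pgk1 runs from -0.45 to 0.79, which leaves room for a difference in either sense. Leaving out replicate 1 or 3 of the adult-tagged group, 2 of the perinate-tagged, 3 of the adult thymus or 1 or 3 of the perinate thymus lowered the count from 3 to 1, and leaving out replicate 1 of the adult thymus raised it to 5. Over the 29 measured members, 6 were called in none of the comparisons: Slc2a1, Aldoc, Ldhb, Pfkfb4, Pgls and Bnip3. Pfkfb4, at 6.15 to 6.94 on all arrays, lies near the level of no transcript.

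Further genes of the same pathways lie outside the list of members, and their counts stand beside the 16% of all genes called higher between the tagged groups and the 18.5% called higher in thymus. In the tagged comparison, of other pentose and ribose genes, a list that also holds Pgm1 and Pgm3, 1 of 9 rose. It was Dera, a deoxyribose phosphate aldolase, by 0.85 ± 0.135 (adjusted p = 0.000578 in limma). Its levels were 10.39, 10.06 and 10.15 against 9.23, 9.56 and 9.28, with no overlap. Of genes for the entry of pyruvate into mitochondria 3 of 10 were called higher (30%), the kinase Pdk3 (0.64) and the pyruvate dehydrogenase subunits Dld (0.56) and Pdha1 (0.55), of which Dld and Pdha1 each lost the call under 10 of 19 alternatives. Of other glycolytic genes 0 of 13 were higher. Ldhd, which oxidises D-lactate, was called lower, but it was tested only because its mean reached 7.08 in adult-tagged cells, with 6.83 or less in the other spleen groups.

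In thymus 1 gene in each of 3 lists, Bpgm, Pgm3 and Pdhx, was likewise tested only through the perinate thymus, since their adult means were under the filter. Without these, 1 of 11 other glycolytic genes rose, Eno2 (0.66), and of the list of pentose and ribose genes 3 of 7 (42.9%), Prps1 (0.70), Dera (0.53) and Pgm1 (0.46). Pgm1 was placed in that list by choice, so its share is not one of pentose enzymes alone. Of pyruvate entry genes 2 of 9 rose (22.2%), Pdha1 (1.10) and Pdhb (0.49). Pdha1 was called under all 18 alternatives run, Eno2 and Prps1 under 11 of 18, Dera under 10 of 18, Pdhb under 8 of 17 and Pgm1 under 7 of 17.

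Regulators and targets of HIF-1 gave 2 of 14 higher in tagged spleen cells (14.3%), which is below the 16% of all genes. Egln3, the prolyl hydroxylase that marks HIF subunits for destruction and is itself induced by HIF, read 9.81, 9.58 and 9.41 in perinate-tagged and 8.26, 8.69 and 8.55 in adult-tagged cells (1.10 ± 0.146, adjusted p = 0.000125). Epas1, which encodes HIF-2 alpha, read 8.82, 8.66 and 8.67 against 6.75, 7.03 and 7.02 (1.78 ± 0.493, adjusted p = 0.0211), with untagged arrays from 6.97 to 9.17. Its adult-tagged levels are under the filter of 7.05 log2. In thymus Egln3 was lower in perinates, at 8.57, 8.63 and 8.85 against 9.39, 8.97 and 9.55 (-0.63 ± 0.169, adjusted p = 0.0326). There Mxi1 (0.60) and Hif1an (0.52) were higher and Bnip3l (-0.51) lower, 2 of 13 in each direction, where 18.5% of all genes were higher and 5.84% lower. In tagged spleen cells Egln3 was called under all 19 alternatives run and Epas1 under 11 of 18. In thymus Mxi1 was called under 15 of 17, Egln3 under 13 of 18, Bnip3l under 11 of 18 and Hif1an under 10 of 17.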

How the data were processed

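Per the submitters' processing notes, Affymetrix Power Tools with RMA made the deposited intensities, which the authors left on a linear scale; versions and genome build are not given in the sources used here. Of 24922 probe sets, 21425 name 1 gene, 1399 several and 2098 none, by the platform annotation. Intensities were taken as log2, with 1 probe set per gene (highest mean over the 18 arrays). A gene was tested where a group's mean reached the median of all deposited values, 7.05 log2; genes that did so in 1 compared group alone are named as such. limma 3.58.1 in R 4.3.3 (lmFit, eBayes, Benjamini-Hochberg over all tested genes, threshold 0.05) was fitted to the 12 spleen arrays (10350 genes), the 6 thymus arrays (10650) and, for the difference between spleen and thymus, all 18 (10889), and was tested on simulated data. Every sequence is RefSeq's (GRCm38.p6). With 3 arrays a group, their number limits the precision, and an exact permutation test of 1 gene could not go below a p of 0.1. All members are named, and of the related lists up to 4 genes per list past the threshold. Members, lists and comparisons were chosen with earlier results of these data known. In the untagged groups, the deviations of arrays of the same number correlated at 0.62, 0.13 and 0.45 for replicates 3, 4 and 5. Across numbers, replicates 4 and 5 correlated at 0.28 and 0.29, and replicate 3 was negative against both (-0.63 to -0.27). The data thus set replicate 3 apart from replicates 4 and 5 and do not show 3 separate pairs. No label says that arrays are paired. Alternatives were other normalizations, filters, probe set rules, priors, array weights, sample sets, the interquartile range as a covariate, the replicate block and leaving out each array; centring on the tested genes and the other probe set of a gene were added after seeing the data. The chimera arm that the series describes is not analysed here.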

Additional observations from a re-analysis of the deposited data

Results flagged for a closer look

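The following differed between groups by a test of the difference itself in limma. Among the members, the perinate-adult difference was larger in tagged than in untagged spleen cells for Pgk1, by 1.00 log2. It was smaller in tagged spleen cells than in thymus for Slc16a3 (-0.92) and Eno3 (-1.25).

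Outside the members, the difference between tagged and untagged cells passed for Dera (0.77 ± 0.191, adjusted p = 0.0307) and Egln3 (1.44 ± 0.207, adjusted p = 0.000776), and for the marker genes Cd79b (0.77) and Epcam (1.38). Between spleen and thymus it passed for Egln3 (1.72 ± 0.224, adjusted p = 8.72e-05), Epas1 (2.25 ± 0.627, adjusted p = 0.0375) and Epcam (1.01). Epas1 read 6.43 to 6.59 in perinate thymus, 6.80 to 7.10 in adult thymus and 6.75 to 7.03 in adult-tagged cells. These levels lie near that of no transcript, so no size is read from its difference. Egln3 has opposite signs in the spleen and thymus contrasts, and both of its differences passed under all 24 alternatives run. Epas1 passed under 8 of 23 and Dera under 13 of 24. Without perinate-tagged replicate 2 the differences between tagged and untagged cells were 0.67 for Dera (adjusted p = 0.0644) and 0.71 for Cd79b (0.0702), and those between spleen and thymus were 2.20 for Epas1 (0.0735), 1.00 for Epcam (0.0878) and -1.14 for Eno3 (0.107), so that these 5 calls were lost.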

How the results depend on the processing

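Each comparison was recomputed with 1 choice changed at a time, and the count of members called is given here where it moved by over 1.5 times. Between the tagged groups (11 calls) it was 5 after quantile normalization, 5 after centring on the tested genes, 22 with array weights (21 higher, 1 lower), 6 in a fit of all 18 arrays, 1 with the interquartile range as a covariate, 3 with the replicate block over the 12 spleen arrays, and 3 to 10 when each array was left out. For the difference of differences (1 call) it was 5 with array weights, 0 with all 18 arrays, 0 with the replicate block and 1 to 2 when each array was left out. Between perinate-tagged and untagged cells (8 calls) it was 18 with array weights (17 higher, 1 lower), 5 with all 18 arrays and 2 to 9 when each array was left out. Between adult-tagged and untagged cells (0 calls) it was 0 to 2 when each array was left out, with 2 (1 higher, 1 lower) without untagged replicate 3. In thymus (13 calls) it was 8 after quantile normalization, 8 after centring on the tested genes, 7 with a stricter filter, which leaves fewer genes to test, 8 with array weights and 4 to 22 when each array was left out. Between the spleen and thymus contrasts (3 calls) it was 5 after quantile normalization, 17 with array weights (5 higher, 12 lower), 6 with the groups compared alone, 6 with the interquartile range as a covariate and 1 to 5 when each array was left out. Untagged cells gave 0 calls of members under every alternative run, the pairing of their 6 arrays by replicate block included, which called 49 genes in all. The causes of these changes were not tested.

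Over the 682 recomputed values of members called in a comparison, 500 stayed called, 182 lost the call and 0 changed sign. The replicate numbers of the thymus samples share no pattern (correlations -0.05, 0.07 and 0.12 between arrays of the same number). With the replicate block 15 members were called in thymus, 12 of them among the main 13. Between perinate-tagged and untagged cells 8 were called, 7 higher and 1 lower, and 7 of the main 8 were kept. Between the spleen and thymus contrasts 2 were called, 1 of them among the main 3. The main counts include Hk2 and Pdk1 in thymus and Hk2 between the spleen and thymus contrasts. These genes reached the filter in perinate thymus alone. Hk2 outside the perinate thymus and Pfkfb4 on all arrays lie near 6.30 log2, the top of the range for no transcript. Their values fall partly within that range and partly above it, so no size is read from their differences.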

Other observations

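The HIF genes Hif1a and Epas1 were uneven within the untagged groups in the same way. Epas1 read 7.27 on untagged replicate 3 of the adult-treated and 6.97 on that of the perinate-treated group, and 8.82 to 9.17 on replicates 4 and 5 of both. Hif1a read 11.30 and 11.46 on the same arrays and 11.93 to 12.11 on the others. These 2 genes were picked out after their values were seen, and the split of the arrays is not particular to them. Eno3 read 9.50 and 9.71 on untagged replicate 3 and 8.46 to 8.96 on replicates 4 and 5. Galm, of the other glycolytic genes, read 8.98 and 8.92 on replicate 3 and 7.35 to 7.83 on replicates 4 and 5. Over all tested genes the replicate 3 arrays of both untagged groups deviated together (correlation 0.62).

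Egln3 lay between the tagged groups in untagged cells: it was higher in perinate-tagged than in untagged cells of the same treatment by 0.69 ± 0.146 (adjusted p = 0.0106 in limma) and lower in adult-tagged cells by 0.75 (-0.75 ± 0.146, adjusted p = 0.0486 in limma). The first passed under all 19 alternatives run and the second under 8 of 19; it was lost without any 1 of the adult-tagged arrays and without replicate 4 or 5 of the untagged ones.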
